A study of Mus musculus with 6 samples.

Results

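Heat shock proteins and their partner chaperones were followed in whole skin of Hoxc13-overexpressing mice. Members were all probe sets whose gene symbol begins with Hspa, Hspb, Hspd, Hspe, Hsph, Hsp90, Dnaja, Dnajb or Dnajc, or with Cct or Hsf and a number. They came to 79 of the 12488 probe sets on the array and stood for 57 of the 8251 genes that a probe set names alone. The series held 3 samples of GC13 skin, from a transgenic line that overexpresses the hair follicle homeodomain factor Hoxc13, and 3 samples of skin from FVB mice, an albino inbred strain. Both groups were total skin taken 5 days after birth, and each sample was hybridised to 1 Affymetrix array. The labels name neither the promoter of the transgene nor the number of founders, and they do not say whether skin of several mice was pooled or whether each sample was a mouse of its own. P-values therefore reflect the differences among these 6 samples alone, which may be technical.

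Many molecular chaperones bind unfolded protein and release it in cycles of ATP binding and hydrolysis. The HSP70 proteins take their clients from J-domain proteins, the products of the Dnaja, Dnajb and Dnajc genes, and pass some of them on to HSP90 or to the barrel-shaped chaperonins. Heat shock factors switch many of these genes on through heat shock elements in their promoters, while chaperones of the endoplasmic reticulum answer to the unfolded protein response through a separate promoter element. In skin, keratinocytes and the cells of the growing hair make large amounts of filament and envelope protein, and the epidermis is exposed to heat and radiation.

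The arrays differed within the GC13 group, and this bears on every result below. The 3' over the 5' control signal of Gapdh grows as transcripts lose their 5' ends, and it stood at 2.22, 9.58 and 2.19 on GC13 replicates 1 to 3, against 0.931, 0.958 and 0.894 on the FVB arrays (exact two-sided permutation test on the log2 ratios, p = 0.1, the smallest that 3 against 3 allows). The beta-actin ratio was 1.26, 3.80 and 1.43 in GC13 and between 1.16 and 1.36 in FVB (exact permutation p = 0.2). GC13 replicate 2 thus stood apart by both ratios, and its Y-linked genes were higher than on the other GC13 arrays. Eif2s3y had intensities of 3.25, 143 and 4.60 in GC13 and of 69.4, 98.9 and 79.6 in FVB, and Uty had 4.87, 34.7 and 7.19 in GC13 and 13.3, 15.2 and 13.8 in FVB. Xist, which is expressed from the inactive X chromosome, had 9.15, 1.07 and 12.6 in GC13 and 9.95, 11.9 and 11.7 in FVB. The FVB arrays thus had values for both Eif2s3y and Xist, GC13 replicate 2 mainly for Eif2s3y, and GC13 replicates 1 and 3 mainly for Xist. Xist reached at most 12.6 on any array, and its signal over background is unknown. Whether the FVB samples pooled skin of both sexes was not tested. Summed marker intensity of whole skin was present on all arrays, at 8292 to 12226 in GC13 and 7617 to 7855 in FVB for 8 keratinocyte genes, and at 10277 to 12413 in GC13 and 7910 to 8586 in FVB for 9 dermal fibroblast genes. For 12 skeletal muscle genes the sums were 4539 to 5284 in GC13 and 3904 to 3957 in FVB, and for 10 hair follicle genes 12562 to 14704 in GC13 and 15276 to 15959 in FVB. Of these genes Vcan of the fibroblast list rose (log2 difference 1.32, limma adjusted p = 0.0489) and Krt72 of the hair follicle list fell (log2 difference -1.37, limma adjusted p = 0.0351). The sums of 6 melanocyte genes were 529 to 818 in GC13 and 1014 to 1079 in FVB, and those of 7 endothelial genes 839 to 1086 in GC13 and 584 to 699 in FVB, also without overlap. Nor did the sums overlap for 5 adipocyte genes (1717 to 2449 in GC13, 1574 to 1661 in FVB) or 7 leukocyte genes (416 to 426 in GC13, 448 to 538 in FVB). Those of erythroid and immediate early genes overlapped. Bright genes weigh most in a sum, and Dsp (-0.23) and Krt71 (0.35) went against the sums of the keratinocyte and hair follicle lists. So did Cldn5 (-0.65) in the endothelial list, Fabp4 (-0.32) in the adipocyte list, and Laptm5 (0.38) and Cd68 (0.11) in the leukocyte list. The largest differences of those lists were Eng (1.02), Lpl (0.62) and C1qa (-1.87). Sums without these genes were not taken, so single genes may carry these separations. The lowest single intensity was 93.0 among the keratinocyte genes, 69.2 among the fibroblast genes, 10.2 among the muscle genes and 1.31 among the hair follicle genes, the last for Foxn1 on GC13 replicate 2. The part of these shifts in the chaperone values was not tested. In whole skin, fewer cells of a type and less RNA per cell cannot be told apart.

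A pair of regulatory elements is known from chaperone promoters, and the stretches that hold them are shown because the genes behind them are compared below. A heat shock element was searched as GAA, any 2 bases, TTC, any 2 bases and GAA. The endoplasmic reticulum stress element was searched as CCAAT, any 9 bases and CCACG. Each was searched on both strands, and matches were allowed to overlap. The windows were the 300 bases around each annotated start in RefSeq on build GRCm38.p6, most of them before the start, and 48 of the 57 genes had at least 1. The heat shock element was found for 4 of these 48 genes, against 179 of 27025 genes in all (0.662%), and the endoplasmic reticulum stress element for 3 of 48 genes, against 37 of 27025 (0.137%). No gene held both. Hspd1 and Hspe1, which encode the mitochondrial chaperonin and its lid, lie head to head and share 1 double element between their starts. The 2 matches that make up this double element overlap each other. Capitals mark the element, read 5′ to 3′ on the gene's own strand.
Hspe1, chr1:55087898-55088197, plus strand: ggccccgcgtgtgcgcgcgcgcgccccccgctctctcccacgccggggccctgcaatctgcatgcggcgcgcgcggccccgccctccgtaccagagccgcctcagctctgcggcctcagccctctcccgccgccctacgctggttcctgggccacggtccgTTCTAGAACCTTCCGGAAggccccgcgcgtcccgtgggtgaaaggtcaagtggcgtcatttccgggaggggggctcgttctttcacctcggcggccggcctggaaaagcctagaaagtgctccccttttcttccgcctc
Hspd1, chr1:55088044-55088096, minus strand, the same element: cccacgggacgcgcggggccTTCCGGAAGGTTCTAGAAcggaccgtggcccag
Hsph1, chr5:149636268-149636320, minus strand: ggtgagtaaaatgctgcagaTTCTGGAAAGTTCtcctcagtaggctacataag
Dnajb6, chr5:29735832-29735884, plus strand: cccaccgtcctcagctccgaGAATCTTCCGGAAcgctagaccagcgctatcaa
Hspa5, chr2:34771840-34772139, plus strand: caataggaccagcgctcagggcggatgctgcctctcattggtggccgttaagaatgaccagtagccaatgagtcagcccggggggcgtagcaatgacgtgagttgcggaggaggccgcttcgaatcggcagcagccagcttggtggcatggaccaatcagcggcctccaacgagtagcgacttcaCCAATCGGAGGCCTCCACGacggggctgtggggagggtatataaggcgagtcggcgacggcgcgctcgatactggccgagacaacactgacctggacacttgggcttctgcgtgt
Hsp90b1, chr10:86705395-86705694, minus strand, with 2 matches: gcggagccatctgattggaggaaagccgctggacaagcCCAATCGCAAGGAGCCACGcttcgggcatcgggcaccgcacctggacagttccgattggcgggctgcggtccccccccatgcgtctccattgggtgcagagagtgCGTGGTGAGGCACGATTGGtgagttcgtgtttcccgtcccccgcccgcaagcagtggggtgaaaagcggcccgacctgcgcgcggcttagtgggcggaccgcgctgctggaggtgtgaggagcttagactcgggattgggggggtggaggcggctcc
Dnajc3, chr14:118937807-118937865, plus strand: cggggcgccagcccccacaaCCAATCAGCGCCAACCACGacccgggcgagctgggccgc
The Hspe1 window and an Hspd1 window overlap by 285 bases. In the first 4 sequences the capitals are heat shock elements, and in the last 3 they are endoplasmic reticulum stress elements. The match of Hsph1 lies after the annotated starts of the gene. A match describes the letters and does not show that a factor binds there. Only exact matches were counted, so a gene without a match may still hold a variant of the element. The windows of Hspa1a and Hspa1b, for instance, had no match to either element.

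No chaperone passed the test between GC13 and FVB. The limma fit ran over 9316 probe sets on the log2(intensity + 2) scale, after centring each array on its median and leaving out the dimmest 25%, with Benjamini-Hochberg adjustment over all of them and a threshold of 0.05. Of the 79 chaperone probe sets 70 were bright enough to be tested, and they stood for 52 genes, each by the probe set with the highest mean over the 6 arrays. None of the 70 rose, against 0.0859% of all probe sets tested, and none fell, against 0.386% of all (0.472% in either direction). At an unadjusted p under 0.05, 4 of the 70 passed, 2 above 0 (8.52% of all probe sets) and 2 below 0 (6.93% of all), or 5.71% against 15.5% of all probe sets in either direction. The lowest adjusted p of a chaperone probe set was 0.159. In simulated data, over 9316 probe sets of which 200 were changed, the same fit recovered 0.7% of log2 changes of 1 and 96.25% of log2 changes of 2. The absence of a call thus says little about changes of the smaller size. The simulation gave each probe set the same pooled spread in both groups and independent arrays. The data had a wider spread in GC13, so these rates are only a guide. The log2 differences, always GC13 minus FVB, lay above 0 for 27 of the 52 genes and below 0 for 25. Their median was 0.01, beside 0.07 over all 6867 genes tested, and it was -0.06 with no centring and -0.08 with quantile normalization.

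The intervals show how much this design left undetermined. The median half-width of the 95% interval of a chaperone probe set was 0.63 on the log2 scale, and for 24 of the 70 the interval reached beyond a log2 difference of 1 in either direction. For the other 46 a difference of that size lay outside the interval. Spread was wider within GC13 than within FVB: the median SD of the log2 values was 0.45 in GC13 and 0.13 in FVB, and 60 of the 70 probe sets (85.7%) varied more among the GC13 arrays. Over all probe sets tested the medians were 0.41 in GC13 and 0.15 in FVB, and 84.8% varied more in GC13. The plot of log2 differences shows the intervals gene by gene.

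**Figure D1:**
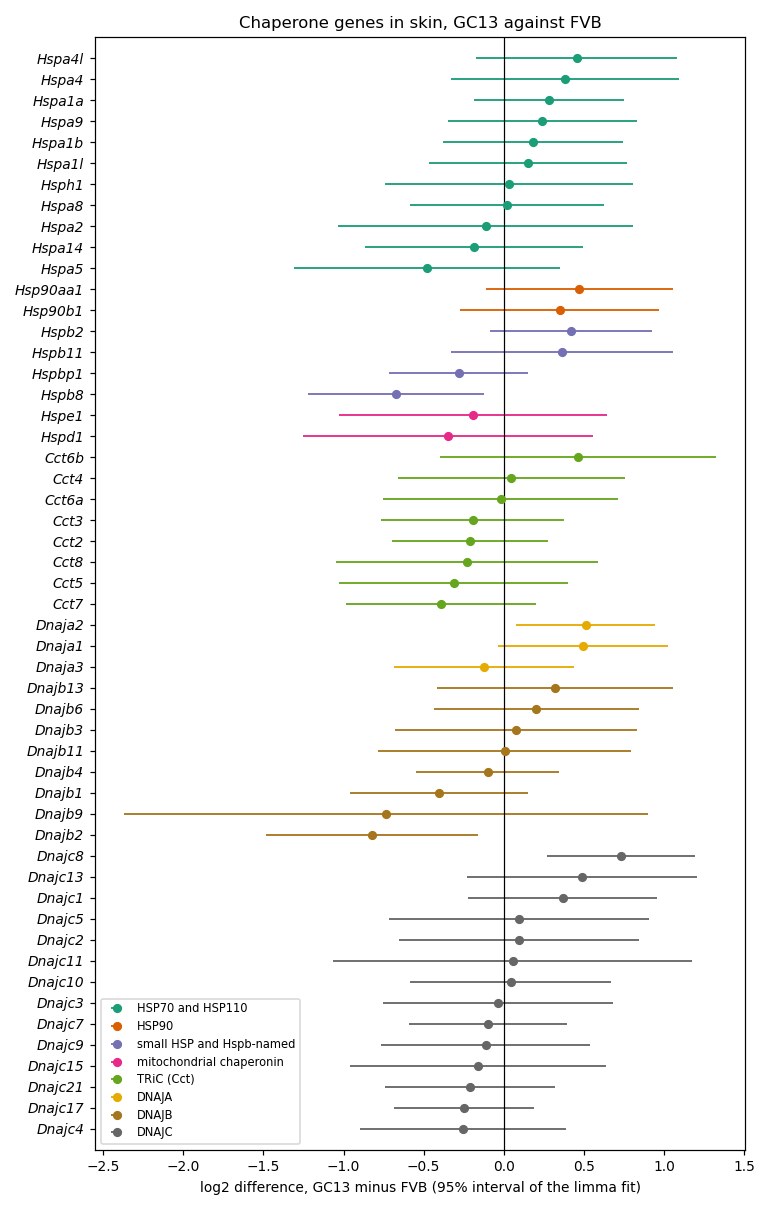
Log2 difference (GC13 minus FVB, x axis) of each of 52 chaperone genes, grouped by role and ordered by value within each role; points are limma estimates from 3 arrays per group and bars their 95% intervals. The intervals of 4 genes (Dnajc8, Dnaja2, Hspb8 and Dnajb2) leave out 0 before adjustment, none passes the adjusted threshold, and Dnajb9 has the widest interval, from -2.37 to 0.90.

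GC13 replicate 2 was the highest of the 3 GC13 arrays for most chaperones. On the centred log2 scale this held for 39 of 52 genes (75%), against 48.4% of all 6867 genes, and GC13 replicate 3 was the lowest for 29 of the 52 (55.8%), against 42.7% of all genes. The median of the 52 genes relative to the FVB mean was -0.05, 0.55 and -0.20 on GC13 replicates 1, 2 and 3, beside 0.06, 0.23 and -0.04 over all genes. In 28 of the 52 genes replicate 2 lay on the other side of the FVB mean from the estimate made without it. The share of all genes for which this held was not counted, so it cannot be read as particular to chaperones. Replicate 2 is the array with the Gapdh ratio of 9.58 and with more Eif2s3y than the other GC13 arrays, and the part of RNA quality and of sex in this pattern was not tested. The map of array values shows the red column of GC13 replicate 2 beside paler or blue cells of replicates 1 and 3.

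**Figure D2:**
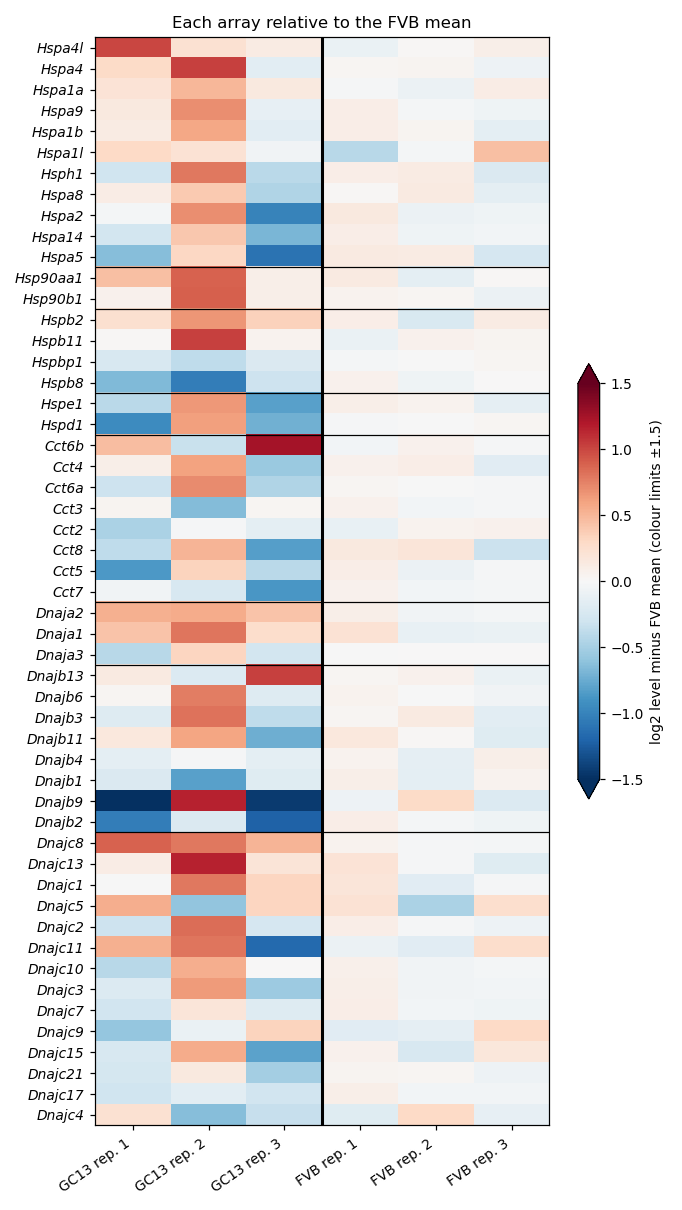
Log2 level of each of 52 chaperone genes (rows, in the order of the plot of differences) on each of the 6 arrays (columns) minus the mean of the 3 FVB arrays; red is higher and blue lower, with colours ending at 1.5 in either direction. GC13 replicate 2 is above the FVB mean for 38 genes, GC13 replicate 1 for 24 and GC13 replicate 3 for 17. Over all 6867 genes tested, the counts for replicates 2, 1 and 3 are 4394, 3745 and 3213.

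The calls depended on that array. Without GC13 replicate 2, 1 chaperone probe set rose and 4 fell out of 69 tested, 7.25% in all, in a fit where 6.14% of all 9316 probe sets rose and 8.84% fell, 15% in either direction. Dnajc8 rose, with a log2 difference of 0.70 (SE 0.17, limma adjusted p = 0.0422). Dnajb9 fell by 1.67 (SE 0.22, limma adjusted p = 0.0113), Dnajb2 by 1.13 (SE 0.15, limma adjusted p = 0.0113), Hspa5 by 0.87 (SE 0.22, limma adjusted p = 0.0443) and Hspd1 by 0.83 (SE 0.15, limma adjusted p = 0.0217). The other tested probe sets of Dnajc8, Dnajb9 and Hspd1 went the opposite way in that fit, at -0.54, 0.45 and 0.18, and did not pass. These calls are therefore of probe sets and not of whole genes. On replicate 2 itself the called probe sets of Dnajb9, Hspa5 and Hspd1 lay 1.15, 0.31 and 0.62 above the FVB mean on the log2 scale. That of Dnajb2 lay 0.22 below it. The median log2 difference of the chaperone genes was -0.22 in that fit and 0.18 without GC13 replicate 3. Both GC13 arrays that remain had less Eif2s3y and Uty than every FVB array. Their Gapdh ratios, 2.22 and 2.19, were also above those of every FVB array, which reached at most 0.958. In this comparison the sex makeup of the samples, RNA quality and the line therefore cannot be told apart. A fit with array weights, which gave GC13 replicate 2 the lowest weight (0.107) and GC13 replicate 1 the highest (4.12), had 9 of the 70 chaperone probe sets higher, against 22% of all, and 11 lower, against 19.3% of all, or 28.6% against 41.3% of all in either direction.

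**Figure D3:**
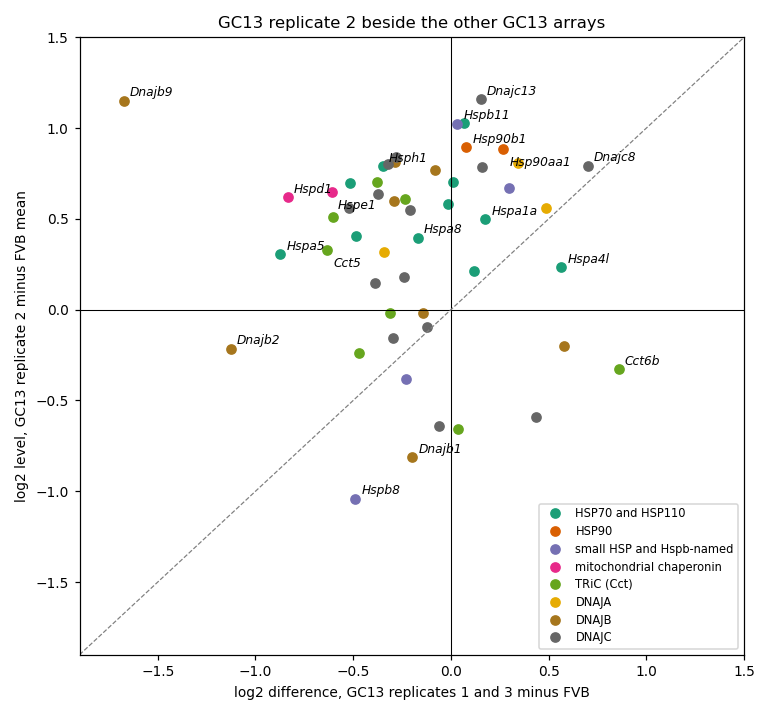
For each of 52 chaperone genes, the log2 difference between GC13 and FVB estimated without GC13 replicate 2 (x axis) against the log2 level of GC13 replicate 2 minus the FVB mean (y axis); the dashed line marks equal values and colours give the role. Dnajb9, Hspd1, Hspe1 and Hspa5 lie left of 0 and above 0, Dnajc8 lies right and above, and Hspb8 and Dnajb2 lie left and below.

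Heat shock factors, the transcription factors of the family, were barely above the lowest signals. Hsf2 had intensities of 3.01, 3.23 and 2.53 in GC13 and of 0.515, 0.902 and 2.25 in FVB. Hsf4, known for its role in the lens, had 2.68, 0.805 and 1.73 in GC13 and 0.734, 1.99 and 1.2 in FVB. Both lay among the dimmest 25% and were not tested, and the separation of the Hsf2 values is one of intensities whose signal over background is unknown. Hsf1, the main factor of the heat shock response, was not analysed here, and neither was Hsp90ab1.

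Neither the inducible nor the constitutive cytosolic HSP70 genes passed the test. Hspa1a (Entrez 193740), 1 of 2 neighbouring genes for the heat-inducible HSP70 on chromosome 17, had 544, 566 and 562 in GC13 and 459.8, 458 and 531 in FVB. Every GC13 value was above every FVB value, but the log2 difference of 0.28 (SE 0.20, 95% interval -0.19 to 0.75) did not pass (limma adjusted p = 0.545). Its neighbour Hspa1b had 813, 948 and 722 in GC13 and 792, 797 and 703 in FVB, with overlapping groups and a log2 difference of 0.18 (SE 0.24). The coding sequences of the pair are known to be near-identical, so each probe set can take up signal of the other gene, and their RefSeq promoter windows were identical at 296 of 300 bases. Hspa8, the constitutive HSP70 of the cytosol, had 743, 769 and 542 in GC13 and 691, 779 and 646 in FVB. By intensity GC13 replicate 3 lay below every FVB array and the other GC13 arrays within the FVB range. On the centred log2 scale GC13 replicate 2 lay above every FVB array, at 0.40 relative to the FVB mean against at most 0.13. The log2 difference of Hspa8, 0.02 (SE 0.26, limma adjusted p = 0.983), turned to -0.055 with no centring and -0.12 with quantile normalization. Hspa1l and Hspa2, which are known mainly from male germ cells, had log2 differences of 0.15 and -0.11, and Hspa14, an HSP70 of the ribosome, had -0.19. Hspa9, the HSP70 of the mitochondrial matrix, had 0.24, and none of these passed.

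HSP110 proteins exchange the nucleotide of HSP70, and none of their genes passed the test. Hspa4 was measured by 5 tested probe sets, all with positive log2 differences, from 0.06 to 0.55, and none passed. Hspa4l had 133, 65.4 and 77.5 in GC13 and 60.3, 68.6 and 72.4 in FVB, a log2 difference of 0.45 (SE 0.27) carried by GC13 replicate 1. Hsph1, whose window holds a heat shock element after the annotated starts, had 160.1, 290.0 and 161 in GC13 and 209.6, 222 and 175 in FVB. Replicates 1 and 3 of GC13 lay below every FVB array and replicate 2 above, which left a log2 difference of 0.03 (SE 0.34). That of Hsph1 turned to -0.042 with no centring and to -0.034 with quantile normalization. Hspbp1, an HSP70 nucleotide exchange factor that the naming rule also takes in, had 88.7, 68.2 and 97.9 in GC13 and 102, 109 and 113 in FVB. All GC13 values were below all FVB values, with a log2 difference of -0.28 (SE 0.19, limma adjusted p = 0.512).

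Both HSP90 genes measured had positive estimates. Hsp90aa1, the inducible cytosolic HSP90, had 1266, 1453 and 1063 in GC13 and 1008, 866 and 976 in FVB. The groups did not overlap by intensity but did on the centred log2 scale, and the log2 difference was 0.47 (SE 0.25, 95% interval -0.11 to 1.06, limma adjusted p = 0.413). A second Hsp90aa1 probe set had at most 5.25 in GC13 and 8.49 in FVB and was not tested. Hsp90b1, the HSP90 of the endoplasmic reticulum, also known as GRP94, had 567, 856 and 621 in GC13 and 556, 574 and 531 in FVB. Its difference of 0.35 on the log2 scale (SE 0.27) rested mainly on replicate 2, and without that array it was 0.077.

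Endoplasmic reticulum chaperones with the same promoter element had estimates of different sign, none of which passed. Hspa5, the HSP70 of this compartment, also known as BiP, had 539, 879.6 and 418 in GC13 and 909, 946 and 730.2 in FVB. GC13 replicates 1 and 3 were below every FVB array, and replicate 2 lay within the FVB range by intensity but above it on the centred log2 scale, for a log2 difference of -0.48 (SE 0.36, 95% interval -1.31 to 0.35, limma adjusted p = 0.56). Dnajc3, a J-domain protein of the same compartment known as p58IPK, had 104, 159.5 and 88.4 in GC13 and 127, 119.5 and 122 in FVB. Its log2 difference was -0.04 (SE 0.31), while further probe sets of Dnajc3 had 0.33 and 0.50. Hspa5, Hsp90b1 and Dnajc3, the members with an exact match to the element, thus had estimates of -0.48, 0.35 and -0.04. Each was highest on replicate 2 among the GC13 arrays. Dnajb9, known as ERdj4, had 31.4, 235 and 48.0 in GC13 and 116, 157 and 111 in FVB, with the FVB arrays between replicate 2 and the other GC13 arrays. Its estimate of -0.73 had the largest SE of the 70 probe sets, 0.71, and did not pass, and another, dim probe set had 0.36. Dnajb11, Dnajc1 and Dnajc10, further J-domain proteins of this compartment, had log2 differences of 0.01, 0.37 and 0.04.

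The mitochondrial chaperonin pair shared a pattern over the GC13 arrays, with replicate 2 high and the other GC13 arrays low. Hspd1 (Entrez 15510), which encodes the HSP60 barrel, had 589.7, 1488 and 746 in GC13 and 1116, 1172 and 1208 in FVB. Hspe1 (Entrez 15528), which encodes its HSP10 lid, had 347, 611 and 280.4 in GC13 and 483, 493 and 434 in FVB. In both genes GC13 replicates 1 and 3 were below every FVB array and GC13 replicate 2 was above every one. The median of the pair relative to the FVB mean was -0.67, 0.63 and -0.77 on GC13 replicates 1 to 3 on the log2 scale. The log2 differences were -0.35 for Hspd1 (SE 0.39) and -0.19 for Hspe1 (SE 0.36), and neither passed (limma adjusted p = 0.711 and 0.833). A second, dim Hspd1 probe set had -0.003. The pair is the one whose starts share the double heat shock element printed above, while Hsph1 and Dnajb6, which hold single elements, had estimates of 0.03 and 0.20. The pattern was not confined to the pair. Relative to the FVB mean, GC13 replicates 1 to 3 were at -0.29, 0.79 and -0.40 for Hsph1 and at -0.38, 0.51 and -0.83 for Cct8. The part of the element in these values was not tested. Dnajb6, a J-domain protein known to hold back protein aggregation, had 469, 669.9 and 437 in GC13 and 475, 475 and 465 in FVB, again with replicate 2 high, and its other probe set had -0.07. Dnaja3, the J-domain protein of mitochondria, had 149, 211 and 178 in GC13 and 197, 207 and 209 in FVB, with an estimate of -0.12.

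**Figure D4:**
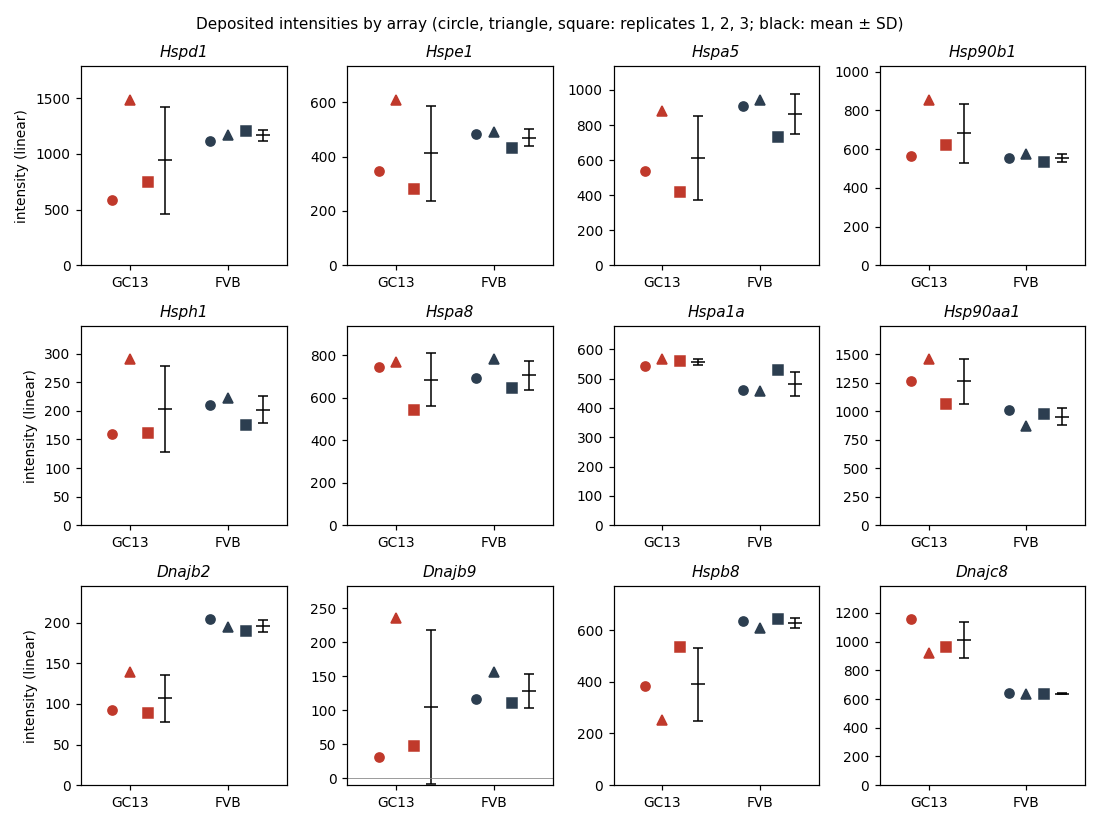
Deposited intensity (linear y axis) of 12 chaperone genes on the 3 GC13 arrays (red, left) and the 3 FVB arrays (dark, right); symbols give the replicate number and black bars the mean ± SD (n = 3). GC13 replicate 2 (triangle) is the highest GC13 array for Hspd1, Hspe1, Hspa5, Hsp90b1, Hsph1, Hspa8, Hspa1a, Hsp90aa1, Dnajb2 and Dnajb9, and the lowest for Hspb8 and Dnajc8.

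Small heat shock proteins hold unfolded protein without using ATP. Hspb8, a small HSP that works with Bag3 in selective autophagy, had 386, 252 and 534 in GC13 and 635, 608 and 642 in FVB. All GC13 values lay below all FVB values, and the log2 difference was -0.67 (SE 0.24, 95% interval -1.22 to -0.12 before adjustment, limma adjusted p = 0.244), lowest on replicate 2. Its other probe set, with intensities of at most 20.1 in GC13 and 20.4 in FVB, had -0.18. Hspb2, a small HSP of muscle, had 196, 224 and 229 in GC13 and 177, 146 and 188 in FVB, without overlap. Its log2 difference was 0.42 (SE 0.22, limma adjusted p = 0.404), and 11 of the 12 skeletal muscle markers also had estimates above 0, with a median of 0.43 and none past the threshold. The part of muscle content in the Hspb2 values was not tested, and a second Hspb2 probe set had -0.19. Hspb1, known as HSP25 in mice, had 1.46, 2.37 and 12 in GC13 and 2.57, 2.14 and 3.80 in FVB and was too dim to test. Hspb11, which despite its symbol encodes a protein of intraflagellar transport, had an estimate of 0.36.

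TRiC, the cytosolic chaperonin that folds actin and tubulin, is built from 8 kinds of subunit, 7 of which carry Cct symbols followed by a number here. Cct7 had 652, 489 and 399 in GC13 and 705, 687 and 693 in FVB, and all GC13 values were lower. Its log2 difference was -0.39 (SE 0.26, limma adjusted p = 0.5). Cct5 had 496, 966 and 739 in GC13 and 960.3, 885 and 932 in FVB, with replicate 2 above every FVB array and an estimate of -0.31 (SE 0.31). Cct2, Cct3, Cct4, Cct6a and Cct8 had -0.21, -0.19, 0.05, -0.02 and -0.23, and none of these passed. Further probe sets of Cct3 went both ways, at -0.23 and 0.47. Cct6b, a form of the zeta subunit known from testis, had 10.6, 4.19 and 21.5 in GC13 and 6.79, 7.87 and 7.43 in FVB, with an estimate of 0.46 (SE 0.37). Of the 8 Cct genes 6 were below 0, with a median of -0.20 and none past the threshold. Tcp1, the remaining subunit, which the naming rule leaves out, had 130.4, 76.4 and 116 in GC13 and 65.8, 64.4 and 87.6 in FVB, an estimate of 0.61 (SE 0.23, limma adjusted p = 0.278).

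J-domain proteins deliver clients to HSP70 and start its ATP hydrolysis. Dnajb2, a member enriched in neurons, had 92.1, 139.6 and 88.3 in GC13 and 204, 194 and 189.9 in FVB. It was the lowest estimate among the 52 genes, at -0.82 (SE 0.29, 95% interval -1.49 to -0.16 before adjustment, limma adjusted p = 0.238), with all GC13 arrays below all FVB arrays. Dnajc8, a nuclear J-domain protein associated with splicing, had 1155, 918 and 962 in GC13 and 641, 637 and 633 in FVB. It was the highest estimate, at 0.73 (SE 0.20, 95% interval 0.27 to 1.2 before adjustment, limma adjusted p = 0.159). The other Dnajc8 probe set had 319, 448 and 234 in GC13 and 412, 443 and 329 in FVB, with an estimate of -0.21, so the probe sets of this gene disagreed. Dnaja2 had 141, 121 and 141 in GC13 and 101, 96.0 and 98.1 in FVB. Dnaja1 had 454, 504 and 439 in GC13 and 389, 323 and 330.0 in FVB. Both are cytosolic type I J-domain proteins, neither overlapped between groups, and their log2 differences were 0.51 (SE 0.19) and 0.50 (SE 0.23) with limma adjusted p of 0.26 and 0.348. Dnajb1, the classical heat-inducible HSP40, had 108, 59.7 and 119.5 in GC13 and 133, 117 and 136 in FVB. Its estimate of -0.40 (SE 0.24, limma adjusted p = 0.463) was lowest on replicate 2, unlike most chaperones.

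None of the remaining J-domain genes passed. Dnajc13, an endosomal member, had 94.5, 168 and 109 in GC13 and 99.9, 89.7 and 79.8 in FVB, with an estimate of 0.49 (SE 0.31). Dnajc7, which also binds HSP90, Dnajc17, a nuclear member, and Dnajc21, a factor of ribosome assembly, had all GC13 intensities below all FVB intensities, with log2 differences of -0.10, -0.25 and -0.21. On the centred log2 scale this separation held for Dnajc17 but not for Dnajc7 or Dnajc21. Dnajc2, a member bound to ribosomes, had 0.09 and 0.46 by its 2 probe sets. Dnajc5, Dnajc9, Dnajc11 and Dnajc15 had 0.09, -0.11, 0.05 and -0.16, and Dnajb3, Dnajb4, Dnajb13 and Dnajc4 had 0.08, -0.10, 0.32 and -0.25. Dnajb5 and Dnajb8 were too dim to test, at no more than 10.5 on any array. A pair of probe sets that list both Dnajc19 and its pseudogene were left unnamed and uncounted.

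Counted over all probe sets tested, separation of the groups was about as frequent among chaperones as elsewhere. All 3 GC13 intensities exceeded all 3 FVB intensities for 10 of the 70 chaperone probe sets (14.3%), against 10.6% of all, and the reverse held for 7 (10%), against 12.3% of all. Taken in both directions the shares were 24.3% for chaperones and 22.9% for all. On the centred log2 scale GC13 lay above FVB for 10 of the 70, against 14.6% of all, and below for 6, against 9.91% of all, or 22.9% against 24.5% of all in either direction. Of the 13 genes with more than 1 tested probe set, 7 had estimates of the same sign throughout and 6 did not.

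Partner genes outside the naming rule held 1 call. Of 102 tested genes in 6 lists (of 133 listed), none rose and 1 fell, beside 6 that rose and 21 that fell of all 6867 genes. The partner that fell was Derl2, which helps to pull misfolded protein out of the endoplasmic reticulum. Derl2 had 29.7, 20.3 and 26.2 in GC13 and 69.3, 71.3 and 66.4 in FVB, a log2 difference of -1.32 (SE 0.20, limma adjusted p = 0.042). This call was lost with no filter on dim probe sets (limma adjusted p = 0.0558), with no centring (0.0552), with the replicate number as a block (0.0511), and on leaving out any 1 array other than GC13 replicate 2 (0.0848 to 0.328). Without GC13 replicate 2 Derl2 had a log2 difference of -1.27 (limma adjusted p = 0.0101). Among the 26 genes of endoplasmic reticulum folding and the unfolded protein response, 11 had estimates above 0 and 15 below, with a median of -0.04. Xbp1, the transcription factor of the unfolded protein response, had 223, 197 and 216 in GC13 and 455, 466 and 408 in FVB. Its GC13 values were all below the FVB values, and its estimate of -0.98 (SE 0.20) missed the threshold (limma adjusted p = 0.0882). Pdia4, a disulfide isomerase, had 154, 104 and 173 in GC13 and 241, 272 and 206 in FVB (log2 difference -0.68, limma adjusted p = 0.213). On the centred log2 scale Derl2, Xbp1 and Pdia4 stayed below the FVB mean on GC13 replicate 2, at -1.41, -0.89 and -0.91, while Hspa5 lay 0.31 above it there. These partners were named for the smallest p of their list, which favours genes whose GC13 arrays go the same way. Their contrast with Hspa5 is therefore no test. The median of all 26 genes relative to the FVB mean was -0.03, -0.02 and -0.29 on GC13 replicates 1, 2 and 3.

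Co-chaperones of HSP70 and HSP90 were split evenly, with 9 of 18 above 0 and a median of -0.04. Stip1, which bridges HSP70 and HSP90, had 89.3, 59.7 and 89.8 in GC13 and 139, 131 and 119 in FVB, an estimate of -0.64 (SE 0.20, limma adjusted p = 0.211). Ppp5c, a phosphatase bound to HSP90, had 23.8, 9.47 and 11.6 in GC13 and 29.9, 33.0 and 35.2 in FVB (log2 difference -1.05, limma adjusted p = 0.175). Both were below every FVB array on all GC13 arrays. Fkbp5, an immunophilin of the steroid receptor complex, had 149, 116 and 171 in GC13 and 112, 84.6 and 117 in FVB, with an estimate of 0.54. Its groups overlapped by intensity but not on the centred log2 scale.

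Mitochondrial folding genes and proteases had 7 of 9 estimates below 0 and a median of -0.50, none past the threshold. Grpel1, the nucleotide exchange factor of mitochondrial HSP70, had 79.3, 73.0 and 64.5 in GC13 and 139.8, 141 and 116 in FVB (log2 difference -0.78, limma adjusted p = 0.182). Tomm40, the pore of the outer membrane, had 65.0, 41.7 and 59.6 in GC13 and 106, 111 and 114 in FVB (log2 difference -0.92, limma adjusted p = 0.109). Phb2, a prohibitin of the inner membrane, had 309, 351 and 269.6 in GC13 and 455, 469 and 457 in FVB, an estimate of -0.50. All of these were lower on every GC13 array, replicate 2 included, whereas Hspd1 and Hspe1 were higher than FVB on replicate 2. They too were named for the smallest p of their list, so this contrast is no test. The list's median relative to the FVB mean was -0.54, -0.12 and -0.85 on GC13 replicates 1, 2 and 3.

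Among 28 proteasome genes, 11 had estimates above 0 and 17 below, with a median of -0.06. Psmd13, a subunit of the regulatory lid, had 118, 66.6 and 118 in GC13 and 238, 249 and 271 in FVB (log2 difference -1.28, limma adjusted p = 0.0655), and Psmd8 and Psmb5 had -0.88 and -0.78. The prefoldin and tubulin cofactor list had a median of -0.01 over 9 genes, with -0.46 for Pfdn6, a prefoldin subunit, and 0.22 for Tbcb. The list of other stress genes had 7 of 12 above 0 and a median of 0.07, with 0.70 for the metallothionein gene Mt1, 0.58 for the crystallin gene Cryaa and -0.58 for Clu, which encodes the secreted chaperone clusterin. None of these 3 lists held a call.

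**Figure D5:**
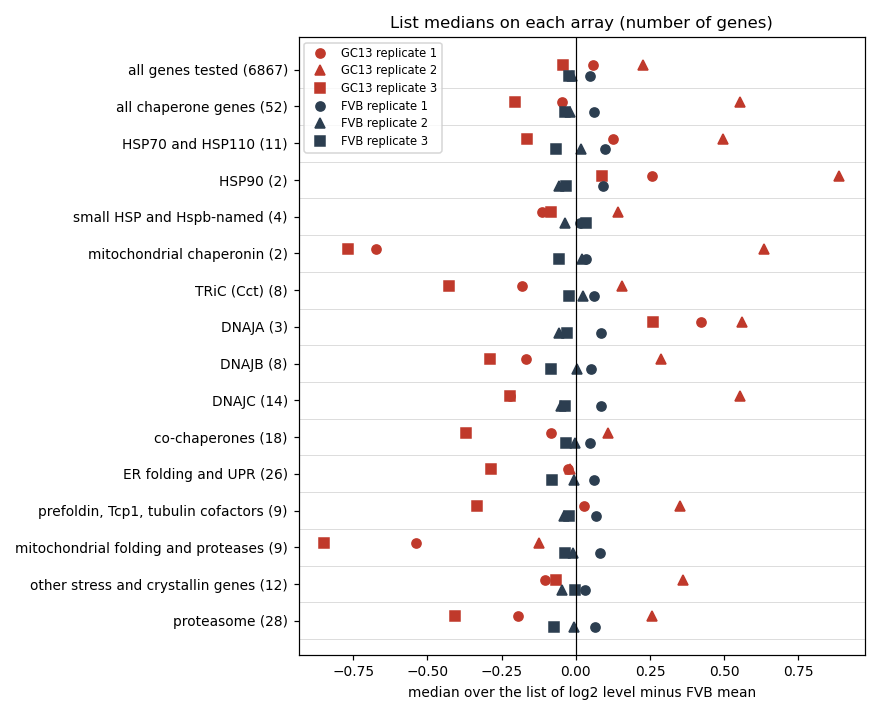
Median over each list of the log2 level minus the FVB mean (x axis) on each array, for all genes tested, all chaperone genes, the chaperone roles and the partner lists (rows, with the number of genes); GC13 arrays are red, FVB arrays dark, and symbols give the replicate number. GC13 replicate 2 (triangle) lies right of the other GC13 arrays in every row, though beside GC13 replicate 1 for endoplasmic reticulum folding genes, and its median is 0.55 for chaperones and 0.23 over all genes.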

How the data were processed

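Total RNA of 6 skin samples was measured on 1 Affymetrix array each. The authors deposited linear intensities, 1 per probe set; judged by these values, the mean of each array without its highest and lowest 2% had been set to 100. Neither the labels nor the file name the software or give detection calls, so signal over background is unknown, and the 3 arrays per group limit precision. The 66 control probe sets served for the 3' to 5' ratios alone. Array medians on the log2(intensity + 2) scale differed by up to 0.345, so arrays were centred. This scale understates the fold change of dim genes. The fit used limma 3.58.1 in R 4.3.3 (lmFit, eBayes), two-sided. On simulated data with the same spread in both groups, unlike the real arrays, 200 of 9316 probe sets were changed. The fit recovered 0.7% of log2 changes of 1 and 96.25% of log2 changes of 2. Gene names came from the platform annotation, updated by Entrez identifier through RefSeq (GRCm38.p6); of 12422 probe sets 10833 had 1 symbol, 396 several and 1193 none, and 10817 identifiers matched. The files name no build. The members and lists were chosen with earlier results of these data known. Every member could be named; those given array by array were, in each role, the 3 genes with the smallest p and the brightest, plus a fixed list of 13 well-known chaperone genes, and in each partner list the 3 with the smallest p. Values of Dnajc3, Dnajb11 and of other members outside this rule follow from their role or promoter element and were chosen after values were seen. Alternatives were other pseudocounts, filters, scalings and variance models, array weights, a replicate block and leaving out each array; the separation of groups on the centred log2 scale was added after seeing the data.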

Additional observations from a re-analysis of the deposited data

How the results depend on the processing

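Of 415 values of 26 chaperone genes under the alternatives, 382 kept their sign and stayed short of the threshold, 18 passed it and 15 changed sign. All 18 that passed came from the fit without GC13 replicate 2 or from array weights, which gave that array 0.107 and GC13 replicate 1 4.12, so that this fit rests largely on 1 GC13 array. With array weights 9 chaperone probe sets rose and 11 fell, in a fit where 2050 of all probe sets rose and 1800 fell (41.3% in all), and 8 partner genes rose and 29 fell. Leaving out 1 array at a time gave 0 to 1 chaperone probe sets higher and 0 to 4 lower, 0 to 572 of all probe sets higher and 0 to 824 lower, and 0 to 1 partner genes higher and 0 to 13 lower; the upper ends are those without GC13 replicate 2, and no probe set passed without any 1 of the FVB arrays. Over all probe sets, 32 rose and 87 fell with a pseudocount of 32, 5 rose with no filter, 2 with no centring and 5 with quantile normalization, and 15 fell with the dimmest 50% left out. Partner genes that fell numbered 2 with a pseudocount of 8, 5 with 32, 2 with a variance trend, and 0 with no filter and with no centring. The replicate block gave 16 higher and 62 lower over all probe sets, changed no chaperone call and left 0 partner genes lower; correlations of same-numbered deviations were -0.07, 0.18 and 0.36, not every array correlated best with its own number, and the samples share only a number. Signs changed for Hspa8 with a pseudocount of 32 (-0.014), no centring (-0.055) and quantile normalization (-0.12), and for Hsph1 with no centring (-0.042), quantile normalization (-0.034) and array weights (-0.32). Leaving out 1 array gave -0.17 to 0.25 for Hspa8, -0.35 to 0.25 for Hsph1, -0.61 to 0.12 for Hspe1, -0.34 to 0.022 for Dnaja3, -0.082 to 0.40 for Dnajb6 and -0.017 to 0.35 for Hspa1b. The cause of these changes was not tested beyond the arrays left out.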
